A study of Homo sapiens with 4 samples.

Results

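TXNIP, 2 of its arrestin relatives, the transcription factor pair that controls it and the genes of the thioredoxin system were described here, 9 genes in all of 18244 on the array. They are TXNIP, ARRDC3, ARRDC4, MLXIP, MLX, TXN, TXN2, TXNRD1 and TXNRD2, and 35 of the 49293 cellular probe sets were annotated to exactly 1 of them. TXNIP was picked because it had the largest difference in favour of shBORIS among the genes tested, so its values are a description and carry no test. The other 8 members were named by family or pathway.

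The samples were 4 arrays of Kelly cells, an established human neuroblastoma line, in a derivative resistant to the ALK kinase inhibitor TAE684. The shBORIS arrays came from cells carrying a short hairpin against BORIS, the protein made by CTCFL (2 arrays), and the shLUC arrays from cells carrying a hairpin against luciferase, the control (2 arrays). Both groups were grown in 1 µM TAE684, exposed to virus for 24 h with 8 µg/ml of polybrene, and then selected in puromycin for 48 h before RNA was taken. The question put is what changes in gene expression with less BORIS in cells that tolerate an ALK inhibitor. The labels call the 2 arrays of a group biological duplicates and name a single hairpin against BORIS, so effects of that hairpin on other genes cannot be told apart from effects of less BORIS. The labels do not say whether the resistant line is 1 clone, and no parental, drug-free cells are among the 4 arrays.

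TXNIP is an alpha-arrestin that binds reduced thioredoxin and helps to draw glucose transporters off the cell surface. Its transcription is driven by MondoA, the protein made by MLXIP, which pairs with MLX and enters the nucleus when glucose phosphates accumulate. Thioredoxins reduce disulfides in other proteins and are themselves kept reduced by NADPH-dependent thioredoxin reductases, with 1 set in the cytosol and another in the mitochondria.

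The deposited values were probe set intensities on a linear scale. Differences below are shBORIS minus shLUC in log2(intensity + 16), and they understate the change of dim genes. Cellular probe sets had medians of 80.8 and 84.5 in shBORIS cells, against 64.4 and 60.4 in shLUC cells, while the medians of the added ERCC spike-in RNAs lay between 24.4 and 25.8 on all 4. Differences are therefore given both on the deposited scale and relative to the median gene, which was itself 0.48 higher in shBORIS as deposited. Of 10946 genes tested, 77.2% were called higher and 4.6% lower as deposited, and 30.2% were called higher and 28.9% lower relative to the median gene (limma, adjusted p under 0.05). CTCFL had intensities of 701 and 737 in shBORIS cells, against 3563 and 3376 in shLUC cells, a difference of -2.25 as deposited. All 9 measured adrenergic neuroblastoma markers were above the intensity floor of 61.4 set for testing, MYCN with 5727 and 6041 in shBORIS cells, against 5347 and 5280 in shLUC cells. Of these markers 2 were called higher and 7 lower relative to the median gene, or 22.2% and 77.8% beside 30.2% and 28.9% of all genes. As deposited 4 were called higher and 0 lower, or 44.4% and 0% beside 77.2% and 4.6% of all genes. CHGA, a protein of secretory granules, read 6272 and 6239 in shBORIS cells, against 2292 and 1974 in shLUC cells, and rose by 1.07 relative to the median gene, whereas MYCN fell by 0.33. The part of such shifts in the members' values was not tested. Of 14 measured markers of leukocytes, endothelium, fibroblasts, Schwann cells, epithelium and hepatocytes, 3 were above that floor. The summed intensity of all 14 was 807 and 813 in shBORIS cells, against 738 and 654 in shLUC cells. The 3 were the fibroblast marker PDGFRB, the leukocyte marker CD68 and the endothelial marker VWF. PDGFRB read 265 and 287 in shBORIS cells, against 205 and 198 in shLUC cells. CD68 lay between 70.3 and 87.0 and VWF between 66.3 and 83.8 over the 4 arrays. The dimmest of the 14 was the leukocyte marker PTPRC, between 10.8 and 15.9 on all arrays.

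TXNIP was far brighter in the shBORIS cells on each of its 5 probe sets. Its brightest probe set read 2087 and 2201 in shBORIS cells, against 151 and 152 in shLUC cells, with means of 2144 ± 80.7 and 151 ± 1.13 (SD, n = 2 each). The difference was 3.69 as deposited, or 12.9-fold on the log2(intensity + 16) scale, and 3.21 relative to the median gene, or 9.27-fold. The gene next in rank, SNX5, a sorting nexin, followed at 2.30 relative to the median gene, or 4.91-fold. In bulk RNA of this kind, more transcript in each cell and more cells with the transcript cannot be told apart.

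The other 4 TXNIP probe sets gave the same picture at different brightness. The second read 2054 and 2124 in shBORIS cells, against 146 and 138 in shLUC cells. The third read 1277 and 1294 in shBORIS cells, against 110 and 102 in shLUC cells. Both stood far brighter in the shBORIS cells. The fourth read 1032 and 1209 in shBORIS cells, against 60.7 and 65.8 in shLUC cells, and it gave the widest difference, 3.36 relative to the median gene. The fifth read 1073 and 991 in shBORIS cells, against 113 and 107 in shLUC cells, and it gave the narrowest, 2.58. No shBORIS array overlapped a shLUC array on any of the 5, and the folds ran between 8.30 and 14.3 as deposited and between 5.96 and 10.3 relative to the median gene. Of all cellular probe sets, 67.2% had both shBORIS arrays above both shLUC arrays as deposited and 22.6% did so relative to the median gene; TXNIP was chosen on this contrast, so nothing is read from its share.

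The promoters of the 3 arrestin members are shown because TXNIP is a textbook target of MondoA and MLX, whose paired binding sites can be looked for in the letters. Each is the 250 bases upstream of the first listed transcription start in the RefSeq promoter table (GRCh38.p14), 5′ to 3′ on the gene's strand. TXNIP lies at chr1:145996580-145996829 on the minus strand, ARRDC3 at chr5:91383318-91383567 on the minus strand and ARRDC4 at chr15:97960453-97960702 on the plus strand. Capitals mark matches to the E-box CACGTG, to the carbohydrate response element pattern, which is a pair of CACGNG letters 5 bases apart, and to the CCAAT box, with each searched on both strands, so that ATTGG is a CCAAT box on the other strand.
TXNIP: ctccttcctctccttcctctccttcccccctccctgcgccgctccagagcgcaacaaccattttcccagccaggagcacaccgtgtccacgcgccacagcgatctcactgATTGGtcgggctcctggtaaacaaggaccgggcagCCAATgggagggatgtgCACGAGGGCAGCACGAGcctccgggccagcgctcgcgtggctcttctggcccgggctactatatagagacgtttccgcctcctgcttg
ARRDC3: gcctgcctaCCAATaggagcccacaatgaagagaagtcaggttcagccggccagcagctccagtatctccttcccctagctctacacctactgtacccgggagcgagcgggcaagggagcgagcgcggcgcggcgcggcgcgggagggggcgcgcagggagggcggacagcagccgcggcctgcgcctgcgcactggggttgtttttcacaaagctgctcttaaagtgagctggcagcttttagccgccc
ARRDC4: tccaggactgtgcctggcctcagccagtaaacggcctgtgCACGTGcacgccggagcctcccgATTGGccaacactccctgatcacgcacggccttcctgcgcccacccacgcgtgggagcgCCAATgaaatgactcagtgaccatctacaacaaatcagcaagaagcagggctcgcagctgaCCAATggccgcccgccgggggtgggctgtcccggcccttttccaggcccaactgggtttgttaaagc
The TXNIP promoter held the carbohydrate response element pattern as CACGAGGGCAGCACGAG, 88 to 72 bases before the start, between a pair of CCAAT boxes farther upstream and the start itself. The ARRDC4 promoter held a palindromic E-box, 210 to 205 bases before the start, and 3 CCAAT boxes, while the ARRDC3 window held 1 CCAAT box and neither of the other motifs. The pattern could contain a palindromic E-box, but the TXNIP match does not. It was in 16 of the table's 35116 promoters, or 0.0456%, against 6.34% for the E-box and 32% for the CCAAT box. Of the 8 members with a promoter in the table, 1 held the pattern, 2 held an E-box (ARRDC4 and MLX) and 6 held a CCAAT box. These matches describe letters in a window and say nothing of binding.

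The pattern was also in the promoters of 15 genes other than TXNIP, 11 of them tested, and relative to the median gene those were called in both directions. On that scale 4 were called higher, 4 lower and 3 neither, beside 30.2% higher and 28.9% lower among all genes, with a median difference of -0.01. As deposited 9 of the 11 were called higher, beside 77.2% of all genes. MTHFS, a folate enzyme, read 374 and 406 in shBORIS cells, against 195 and 183 in shLUC cells and had the highest difference of the 11, 0.51 (limma adjusted p = 6.55e-05). RCN3, a calcium-binding protein of the secretory pathway, read 117 and 130 in shBORIS cells, against 147 and 146 in shLUC cells and had the lowest, -0.69 (limma adjusted p = 3.31e-05).

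**Figure D1:**
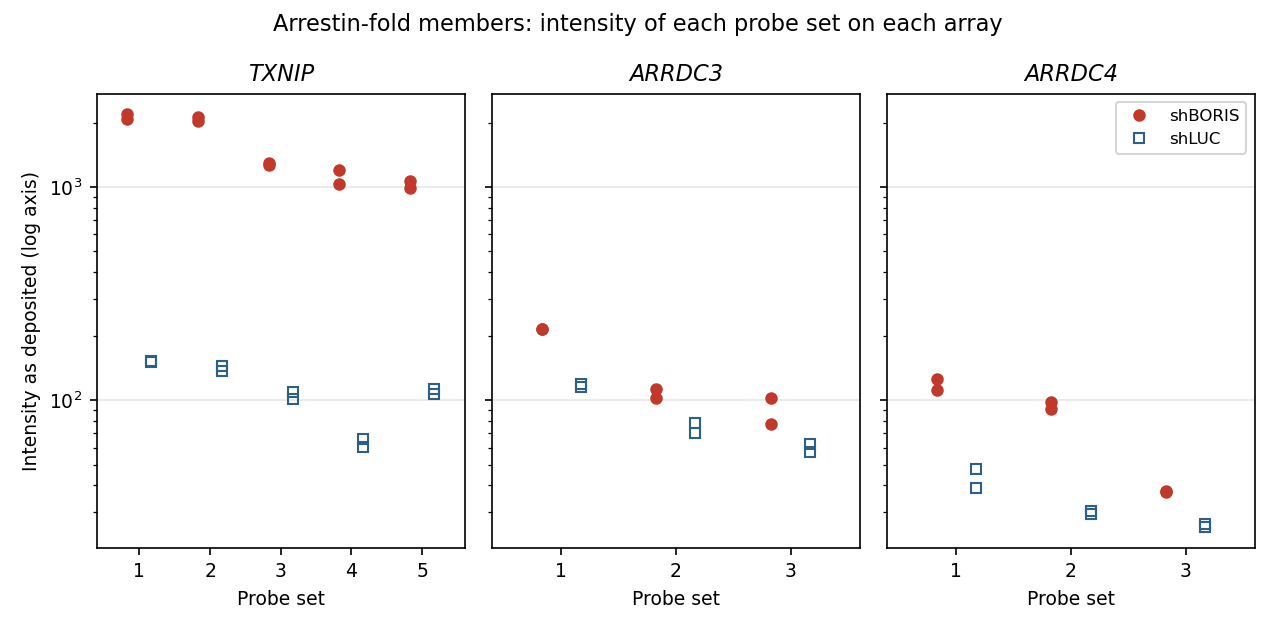
Deposited intensity (log axis) of every probe set of TXNIP, ARRDC3 and ARRDC4 on each array, with shBORIS left of shLUC; points are single arrays. On all 11 probe sets both shBORIS arrays lie above both shLUC arrays as deposited, as on 67.2% of all cellular probe sets. The distance is widest for the 5 probe sets of TXNIP, which was chosen on this contrast. Relative to the median gene 2 ARRDC3 probe sets overlap, and the dimmest ARRDC4 probe set lies lower in shBORIS.

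Both arrestin relatives of TXNIP were brighter in the shBORIS cells, at far smaller differences. ARRDC4, an alpha-arrestin that like TXNIP lowers glucose uptake when overexpressed and is a MondoA target, read 112 and 126 in shBORIS cells, against 47.8 and 38.8 in shLUC cells. The shLUC arrays were below the intensity floor of 61.4, so ARRDC4 entered the test only through the group in which it was bright, and its call is given for completeness. Its difference was 1.19 (SE 0.11) as deposited and 0.71 (SE 0.09, 95% interval 0.52 to 0.90, limma adjusted p = 7.64e-05) relative to the median gene, rank 261 of 10946. Genes in the lowest decile of level, where ARRDC4 lies, had a median difference of -0.17 relative to the median gene. A second ARRDC4 probe set, below the floor, read 91.5 and 98.5 in shBORIS cells, against 29.2 and 30.1 in shLUC cells, a difference of 0.80 relative to the median gene. The dimmest read 37.1 and 37.6 in shBORIS cells, against 26.2 and 25.4 in shLUC cells, and its difference of -0.12 missed the threshold (limma adjusted p = 0.319 over all probe sets). Among probe sets in the same decile of level as the dimmest, the median difference was -0.35.

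ARRDC3, an alpha-arrestin that links receptors and integrins to NEDD4-family ubiquitin ligases, read 216 on both shBORIS arrays, against 119 and 115 in shLUC cells. The difference was 0.80 (SE 0.11) as deposited and 0.33 (SE 0.07, 95% interval 0.17 to 0.49, limma adjusted p = 0.00286) relative to the median gene. The other 2 ARRDC3 probe sets did not follow on that scale. One read 102 and 113 in shBORIS cells, against 70.2 and 78.0 in shLUC cells, a difference of -0.02 relative to the median gene (limma adjusted p = 0.863). The other read 103 and 77.6 in shBORIS cells, against 62.5 and 57.3 in shLUC cells, a difference of 0.00 (limma adjusted p = 0.998). Relative to the median gene the groups overlapped on both of these, and with the mean of its probe sets ARRDC3 was at 0.14 and no longer called (limma adjusted p = 0.0778). The gene overlaps the long noncoding RNA ARRDC3-AS1, whose signal a probe set cannot be shown to leave out. The within-array log2 ratio of ARRDC4 over ARRDC3 removes the scale of an array only in part, because a constant is added to each intensity. This weighs most on dim genes, such as ARRDC4 in shLUC cells. The ratio was 0.38 higher in shBORIS, with a positive difference in every pairing of a shBORIS with a shLUC array (0.22 to 0.55). Its exact permutation p was 0.333 (two-sided), the smallest that 2 arrays a group allow.

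Of 7 other arrestin genes listed, 2 were above the floor. Relative to the median gene 0 were called higher and 1 lower, beside 30.2% and 28.9% of all genes. As deposited 1 was called higher and 0 lower, beside 77.2% and 4.6% of all genes. ARRDC1, an alpha-arrestin of vesicle budding, read 170 and 148 in shBORIS cells, against 166 and 155 in shLUC cells, which overlap as deposited, and it fell by 0.49 relative to the median gene (limma adjusted p = 0.00103). ARRB1, a beta-arrestin that turns off G protein-coupled receptors, was at -0.22 (limma adjusted p = 0.0607) and rose by 0.26 as deposited (limma adjusted p = 0.0299).

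Neither gene of the transcription factor pair was called higher relative to the median gene. MLXIP, the gene of MondoA, read 877 and 981 in shBORIS cells, against 692 and 614 in shLUC cells. That was 0.50 as deposited, close to the shift of the median gene, and 0.02 relative to the median gene (95% interval -0.10 to 0.15, limma adjusted p = 0.749). Its second probe set stood at 0.06 relative to the median gene. The dimmer 2 MLXIP probe sets, with mean intensities of 66.8 and 54.4, fell by 0.38 and 0.39 on that scale (limma adjusted p = 0.0107 and 0.00520 over all probe sets), and their deposited intensities overlapped between groups. Probe sets in their decile of level had a median difference of -0.19.

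MLX, the dimer partner of MondoA, read 723 and 872 in shBORIS cells, against 646 and 637 in shLUC cells. Its direction depended on the scale, with a rise of 0.30 as deposited (limma adjusted p = 0.0111) and a fall of 0.18 relative to the median gene (standard error 0.07, limma adjusted p = 0.0460). Relative to the median gene the call was lost without shBORIS replicate 1 (-0.09, limma adjusted p = 0.361) and without shLUC replicate 2 (-0.13, limma adjusted p = 0.164), and as deposited it was lost without shBORIS replicate 2 (0.17, limma adjusted p = 0.303) and without shLUC replicate 2 (0.29, limma adjusted p = 0.0574). All 6 MLX probe sets lay between 0.14 and 0.30 as deposited, 1 of them called higher, beside 51.8% of all cellular probe sets. They lay between -0.34 and -0.18 relative to the median gene, all 6 called lower, beside 46.1% of all cellular probe sets. On that scale both shBORIS arrays lay below both shLUC arrays on each of the 6, as they did on 60.2% of all cellular probe sets. MLX overlaps PSMC3IP, and 1 MLX pseudogene is annotated.

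Genes of the other proteins that pair with MLX or belong to the same dimer network were lower or not called relative to the median gene. Of 4 tested, 0 were called higher and 3 lower, or 75% lower beside 28.9% of all genes, with a median of -0.26, beside 0.00 for all genes tested. As deposited 2 of the 4 were called higher and 0 lower, or 50% and 0% beside 77.2% and 4.6% of all genes. MXD1, a repressor that pairs with MAX, read 122 and 113 in shBORIS cells, against 120 and 123 in shLUC cells and fell by 0.52 (limma adjusted p = 6.24e-04). MXD4 fell by 0.33 (limma adjusted p = 0.00194) and MNT by 0.19 (limma adjusted p = 0.0250), although both were above 0 as deposited, at 0.15 and 0.29. MLXIPL, which makes ChREBP, the liver counterpart of MondoA, was at 0.03 (limma adjusted p = 0.767).

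**Figure D2:**
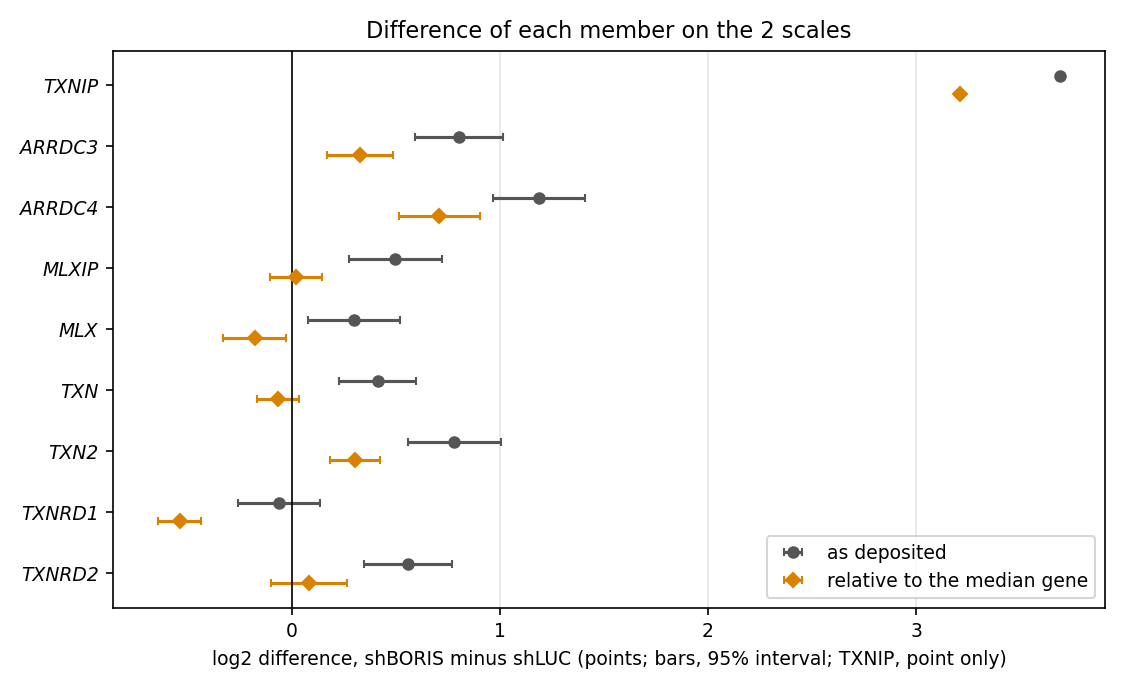
log2 difference, shBORIS minus shLUC, of the brightest probe set of each member on the deposited scale (circles) and relative to the median gene (diamonds); bars are 95% intervals, left out for TXNIP. TXNIP stands alone above 3, and relative to the median gene the intervals of MLX and TXNRD1 lie wholly below 0.

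In the thioredoxin system both mitochondrial genes had higher differences than their cytosolic counterparts, and relative to the median gene the 95% intervals of each pair did not overlap on the brightest probe sets. As deposited, those of TXN2 (0.56 to 1.01) and TXN (0.23 to 0.60) overlapped. Relative to the median gene, in the fit over all probe sets, the TXN2 interval (0.18 to 0.43) overlapped that of every TXN probe set but the brightest (upper ends 0.19 to 0.30). TXN2, the mitochondrial thioredoxin, read 898 and 968 in shBORIS cells, against 545.4 and 525 in shLUC cells, with means of 933 ± 49.5 and 535 ± 14.5 (SD, n = 2 each). It rose by 0.78 as deposited and by 0.31 relative to the median gene (SE 0.05, 95% interval 0.19 to 0.43, limma adjusted p = 7.75e-04). The call on its single probe set held under every alternative run. Relative to the median gene the differences ran from 0.24 (filter at the 60th percentile) to 0.42 (no filter). In place of that scale, quantile normalization gave 0.17, with the highest limma adjusted p, 0.0206, and ERCC centring gave 0.75. Genes in its decile of level had a median difference of 0.14 relative to the median gene, against -0.02 in the decile of TXN and TXNRD1.

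TXN, the cytosolic thioredoxin that TXNIP binds, read 4236 and 4383 in shBORIS cells, against 3389 and 3082 in shLUC cells. It rose by 0.41 as deposited (limma adjusted p = 2.43e-05) and was at -0.06 relative to the median gene (95% interval -0.16 to 0.04, limma adjusted p = 0.252). The other 4 TXN probe sets stood at 0.08 to 0.18 relative to the median gene, and 1 was called (0.18, limma adjusted p = 0.0132 over all probe sets). All TXN probe sets, the brightest included, are of types that may bind related transcripts. So are the brightest of TXNIP, ARRDC3, ARRDC4, MLXIP and TXNRD1, and others of TXNIP, MLXIP, MLX and TXNRD2. With the mean of its probe sets TXN was at 0.13 (limma adjusted p = 0.0270), so the sign of its difference depended on the probe sets used. The reference lists 7 TXN pseudogenes, whose transcripts cannot be told apart from TXN here. The within-array ratio of TXN2 over TXN, taken on the brightest TXN probe set, was 0.37 higher in shBORIS. It lay between 0.30 and 0.44 over the pairings of arrays (exact permutation p = 0.333, the smallest possible).

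TXNRD1, the cytosolic thioredoxin reductase and a selenoprotein, overlapped between the groups as deposited, where most genes were called higher. Its brightest probe set read 2615 and 2861 in shBORIS cells, against 2921 and 2784 in shLUC cells, a difference of -0.06 (95% interval -0.25 to 0.13, limma adjusted p = 0.576). Relative to the median gene it fell by 0.54 (standard error 0.05, limma adjusted p = 9.59e-06), or 1.45-fold, rank 888 among falls. The second probe set read 953 and 1048 in shBORIS cells, against 1218 and 1233 in shLUC cells, and it fell on both scales, to a difference of -0.29 as deposited (limma adjusted p = 0.0106 over all probe sets) and of -0.77 relative to the median gene. The third read 889 and 1039 in shBORIS cells, against 1009 and 1056 in shLUC cells, with -0.58 relative to the median gene. All 3 probe sets were called lower relative to the median gene, as were 46.1% of all cellular probe sets. Of the 3 only the second was called lower as deposited, as were 3.22% of all cellular probe sets. Of all cellular probe sets, 7.54% had both shBORIS arrays below both shLUC arrays as deposited, as this second one did. The gene overlaps TXNRD1-AS1, EID3 and RPL18AP3.

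TXNRD2, the mitochondrial reductase, read 144 and 172 on the shBORIS arrays and 101 on both shLUC arrays. It rose by 0.56 as deposited (limma adjusted p = 4.89e-07) and was at 0.08 relative to the median gene (95% interval -0.10 to 0.27, limma adjusted p = 0.397). Its 5 probe sets stood between 0.02 and 0.24 relative to the median gene, with 1 called (0.24, limma adjusted p = 0.0338 over all probe sets). With the mean of its probe sets TXNRD2 was called higher (0.15, limma adjusted p = 0.0472). The within-array ratio of TXNRD2 over TXNRD1 was 0.62 higher in shBORIS, between 0.53 and 0.71 over the pairings of arrays (exact permutation p = 0.333, the smallest possible).

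**Figure D3:**
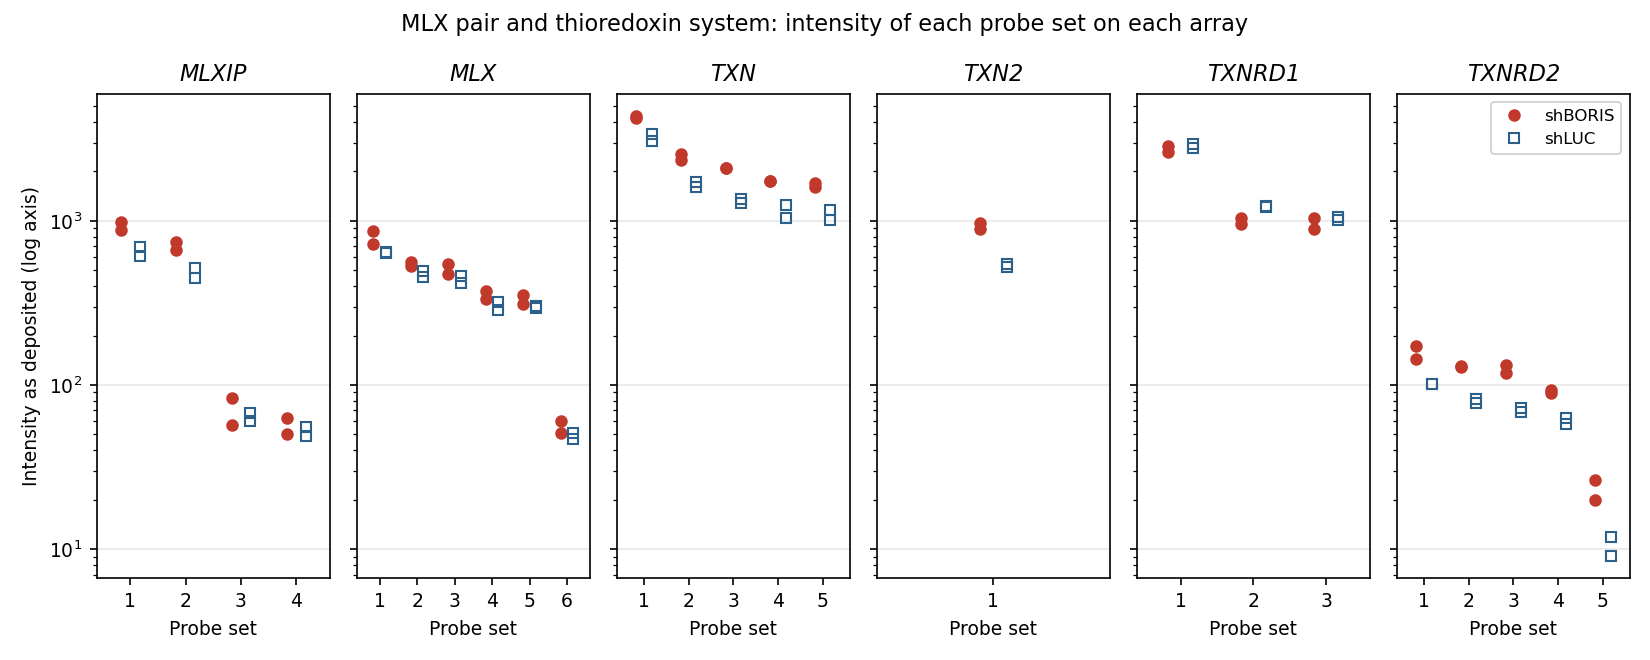
Deposited intensity (log axis) of the probe sets of MLXIP, MLX, TXN, TXN2, TXNRD1 and TXNRD2 on each array, with shBORIS left of shLUC; points are single arrays. TXN2 is brighter on both shBORIS arrays, as are 67.2% of all cellular probe sets, and the brightest TXNRD1 probe set overlaps between groups.

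Counted over the 8 members other than TXNIP, 7 were called higher and 0 lower as deposited, or 87.5% higher where 77.2% of all genes tested were. Relative to the median gene, 3 were called higher (ARRDC3, ARRDC4 and TXN2), or 37.5% beside 30.2%, and 2 lower (MLX and TXNRD1), or 25% beside 28.9%. These shares are near those of all genes, with 8 genes, and 1 of the 3 higher calls is ARRDC4, which entered the test through its bright group. Over their 30 probe sets, with no filter, 20 were called higher as deposited (66.7%, beside 51.8% of all cellular probe sets) and 1 lower (3.33%, beside 3.22%). Relative to the median gene 6 were called higher (20%, beside 16.5%) and 11 lower (36.7%, beside 46.1%).

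**Figure D4:**
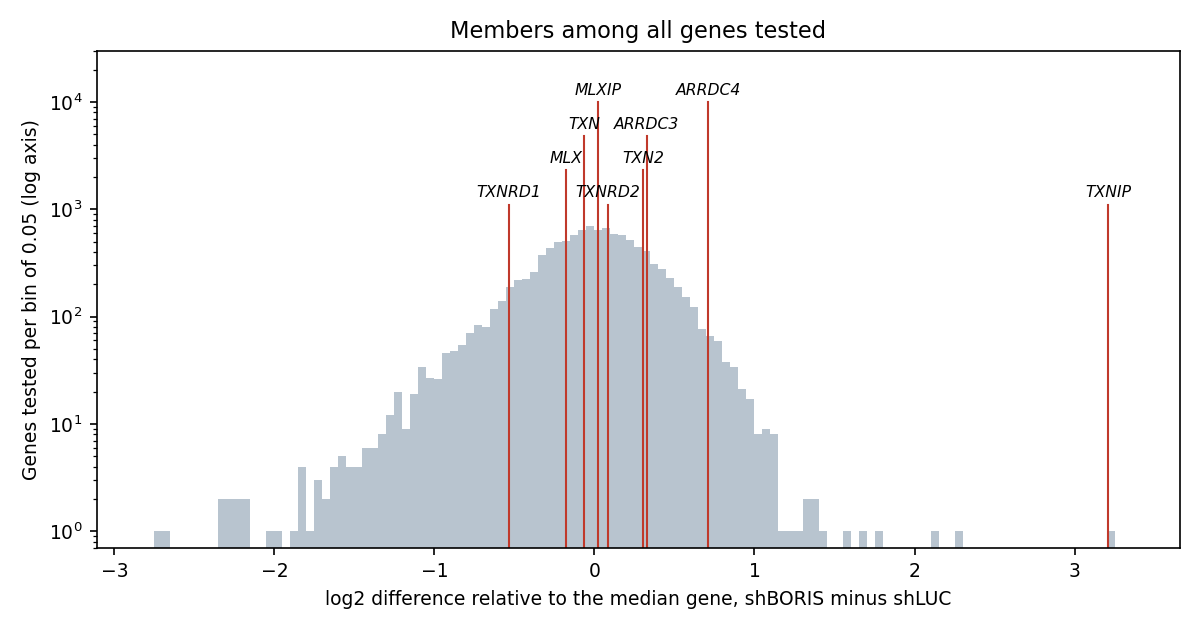
Number of genes tested (log axis) by log2 difference relative to the median gene, shBORIS minus shLUC, with a line at each member's brightest probe set. TXNIP lies at 3.21, apart from the rest, and the other 8 members lie between -0.54 and 0.71, with ARRDC4 at the upper end, at rank 261 of 10946.

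Ubiquitin ligases of the NEDD4 family, to which alpha-arrestins bind through their PPxY motifs, were called in both directions on either scale. Of 8 tested, 1 was called higher and 2 lower relative to the median gene, beside 30.2% higher and 28.9% lower among all genes, and the list median was 0.07. As deposited 6 were called higher and 1 lower, or 75% and 12.5% beside 77.2% and 4.6% of all genes. NEDD4L, which adds ubiquitin to ion channels, read 196 and 199 in shBORIS cells, against 247 and 237 in shLUC cells and fell by 0.75 (limma adjusted p = 9.75e-06). SMURF2, a ligase of TGF-beta signalling, read 497 and 526 in shBORIS cells, against 269 and 241 in shLUC cells and rose by 0.49 (limma adjusted p = 6.77e-05). ITCH, the ligase that marks TXNIP for degradation, was at -0.05 (limma adjusted p = 0.745).

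Glucose uptake and early glycolysis, the processes that TXNIP and MondoA respond to, leaned lower relative to the median gene. Of 10 genes tested, 1 was called higher and 7 lower, or 70% lower beside 28.9% of all genes, with a median of -0.27. As deposited 4 were called higher and 0 lower, or 40% and 0% beside 77.2% and 4.6% of all genes. PFKM, a phosphofructokinase, read 1081 and 1174 in shBORIS cells, against 1107 and 1021 in shLUC cells and fell by 0.39 (limma adjusted p = 9.69e-05). HK2, a hexokinase, read 559 and 620 in shBORIS cells, against 566 and 511 in shLUC cells and fell by 0.35 (limma adjusted p = 4.14e-04). Both overlap between groups as deposited, at 0.08 and 0.13. SLC2A1, the glucose transporter GLUT1 that TXNIP draws off the surface, fell by 0.33 (limma adjusted p = 0.00139) relative to the median gene, and was at 0.15 as deposited. GPI, glucose phosphate isomerase, was the exception, with a rise of 0.23 (limma adjusted p = 0.00326).

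Among known binding partners and regulators of TXNIP, 3 of 10 tested were called higher and 5 lower relative to the median gene, or 30% and 50% beside 30.2% and 28.9% of all genes. As deposited 5 were called higher and 3 lower, or 50% and 30% beside 77.2% and 4.6% of all genes. NEDD4L, ITCH and SLC2A1 are in other lists too. CDKN1B, the cell cycle inhibitor p27 that TXNIP stabilises, read 854 and 825 in shBORIS cells, against 368 and 347 in shLUC cells and rose by 0.72 (limma adjusted p = 9.60e-06). COPS5, a signalosome subunit that TXNIP binds, read 725 and 735 in shBORIS cells, against 314 and 311 in shLUC cells and rose by 0.71 (limma adjusted p = 9.28e-06). The groups did not overlap for either gene. DDIT4, the stress protein REDD1, read 1249 and 1316 in shBORIS cells, against 1673 and 1519 in shLUC cells and fell by 0.79 (limma adjusted p = 1.53e-06), and it was also lower as deposited, at -0.31.

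Of 11 enzymes that draw on thioredoxin, 3 were called higher and 4 lower relative to the median gene, or 27.3% and 36.4%, near the 30.2% and 28.9% of all genes. As deposited 8 were called higher and 0 lower, or 72.7% and 0% beside 77.2% and 4.6% of all genes. RRM2 and RRM1, the subunits of ribonucleotide reductase, rose by 1.01 (limma adjusted p = 6.02e-07) and 0.59 (limma adjusted p = 7.70e-06). RRM2 read 1999 and 2165 in shBORIS cells, against 784 and 685 in shLUC cells. SRXN1, sulfiredoxin, read 395 and 402 in shBORIS cells, against 459 and 400 in shLUC cells and fell by 0.58 (limma adjusted p = 3.22e-05). TXNRD3, the reductase prominent in testis, fell by 0.51 (limma adjusted p = 2.57e-04), a value near that of TXNRD1.

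Of 18 thioredoxin-fold relatives tested, 6 were called higher and 2 lower relative to the median gene, or 33.3% and 11.1% beside 30.2% and 28.9% of all genes, and the list median was 0.08. As deposited 17 of the 18 were called higher and 0 lower, or 94.4% beside 77.2% of all genes. TMX2, a transmembrane relative, rose by 0.23 (limma adjusted p = 0.00643), and TXNDC16 fell by 0.50 (limma adjusted p = 7.41e-04). The NRF2 pathway is the oxidant response through which TXNRD1, TXN and SRXN1 are known to be induced. Of its 11 genes tested, 3 were called higher and 4 lower relative to the median gene, near the shares of all genes. On the deposited scale 9 were called higher and 0 lower, or 81.8% and 0% beside 77.2% and 4.6% of all genes. KEAP1, the inhibitor of NRF2, rose by 0.51 relative to the median gene (limma adjusted p = 5.16e-05), reading 649 and 684 in shBORIS cells, against 332 and 326 in shLUC cells. NQO1, a quinone reductase and NRF2 target, rose by 0.31 (limma adjusted p = 0.00165). On that scale GCLM, the modifier subunit of the glutathione synthesis enzyme, fell by 0.22 (limma adjusted p = 0.00849), and OSGIN1 fell by 0.33 (limma adjusted p = 0.00781). As deposited GCLM was called higher, at 0.26 (limma adjusted p = 0.0291), and OSGIN1 was at 0.15 (limma adjusted p = 0.230).

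**Figure D5:**
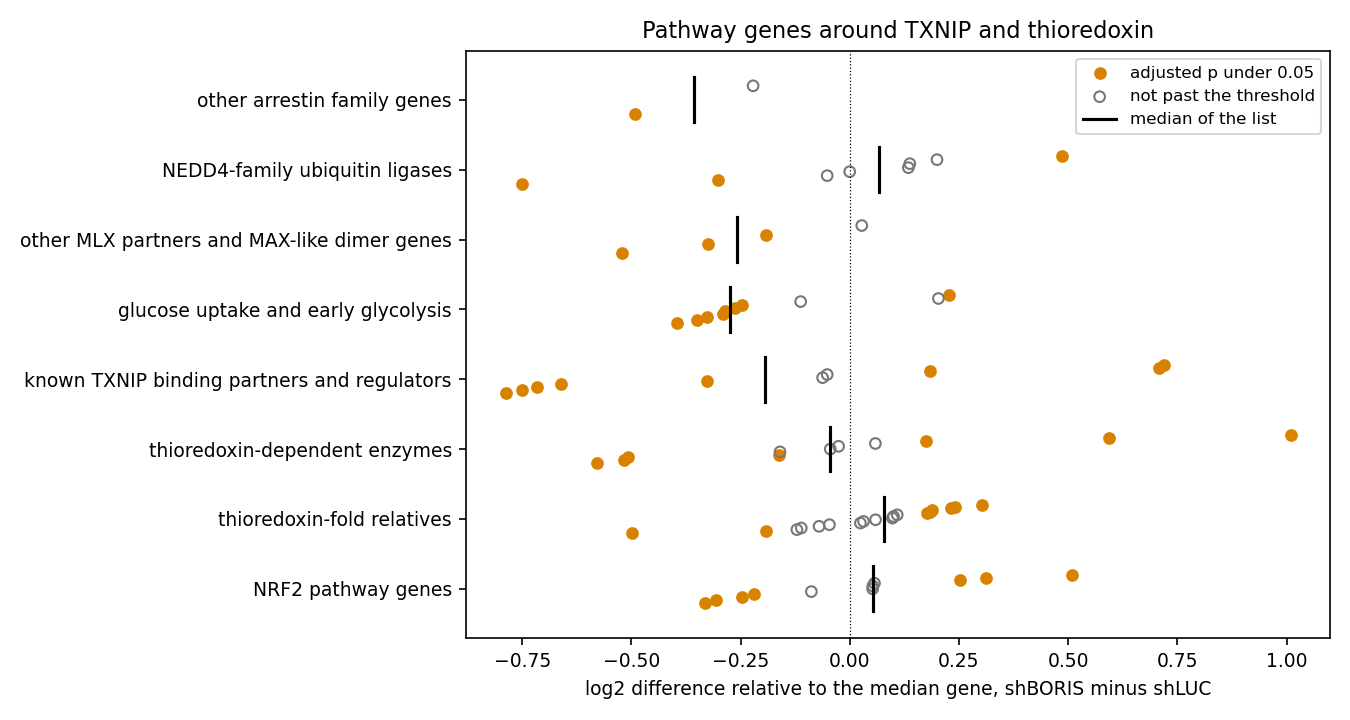
log2 difference relative to the median gene, shBORIS minus shLUC, of every tested gene in 8 lists around TXNIP and thioredoxin; filled points passed the threshold, open points did not, and bars are list medians. The list medians lie between -0.36 and 0.08.

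The genes whose pattern over the 4 arrays was nearest to that of TXNIP, by Euclidean distance between values centred on each array's median gene and on the gene's own mean, were SNX5 (distance 0.918), SNORD17 (1.12), LIN28A (1.46), EGR1 (1.55) and HTR3A (1.64). SNORD17, a small nucleolar RNA, is annotated within SNX5, so the pair may share signal. With 2 arrays a group this distance follows the size of the difference. SNX5 read 1529 and 1594 in shBORIS cells, against 221 and 208 in shLUC cells. LIN28A, an RNA-binding protein of early development, read 390 and 406 in shBORIS cells, against 77.4 and 67.1 in shLUC cells. EGR1, an immediate early transcription factor, read 232 and 236 in shBORIS cells, against 40.9 and 41.0 in shLUC cells, which are below the floor. TXNIP was 1 of 39 genes that were at least 2-fold higher relative to the median gene.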

How the data were processed

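Expression was measured on Affymetrix PrimeView arrays, 2 for shBORIS and 2 for shLUC. The deposited values are linear probe set intensities, 1 column an array. The submitters' processing notes list MAS5, affy and R 3.1.3 but give no role for them. How the authors scaled the arrays to each other is not stated in the labels.

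Of 49495 probe sets, 202 controls were left out. Each of 18244 genes was represented by its brightest single-symbol probe set, and 7298 genes below the 40th percentile of mean level, an intensity of 61.4, were left out. Values were log2(intensity + 16). limma 3.58.1 in R 4.3.3 fitted the hairpin alone with an intensity trend, with 2 residual degrees of freedom, as deposited and with the median of the tested genes subtracted on each array. P-values were two-sided and adjusted by Benjamini-Hochberg over all 10946 genes. Single probe sets were fitted over all 49293 cellular ones with no filter. As deposited, limma's prior variance had infinite degrees of freedom, so p-values rest on the spread pooled over genes.

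The members, lists and motifs were chosen with earlier results of these data known. From each list, up to 4 genes with the smallest p relative to the median gene could be named, beside the members and the 5 genes nearest to TXNIP. GPI, MYCN, ITCH and PTPRC are named outside that rule, for their roles or direction, and MTHFS and RCN3 were chosen after their values were seen. Some listed genes were not analysed here. Same-numbered arrays deviated together at a correlation of 0.098 over 2 pairs, and the numbers were not treated as pairs. Probe levels were not compared between genes.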

Additional observations from a re-analysis of the deposited data

How the results depend on the processing

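TXNIP lay between 3.20 and 3.81 over 13 alternatives to the deposited fit, with the 3.20 from quantile normalization. It lay between 2.95 and 3.65 over 13 alternatives to the fit relative to the median gene, with the 3.65 from ERCC centring. The choice of scale moved the most calls. With quantile normalization in place of the deposited scale, 2914 genes were called higher and 3125 lower (8452 and 504 as deposited), and of the members other than TXNIP 3 were higher and 2 lower; MLXIP turned to -0.10 and MLX to -0.30. With centring on the ERCC medians in place of the median gene, 8230 genes were higher and 587 lower (3307 and 3161 relative to the median gene), and 7 members were higher and 0 lower; MLX turned to 0.26 and TXN to 0.38, and TXNRD1 was no longer called (-0.10, limma adjusted p = 0.309). A filter at the 60th percentile left 5 of the 8 members tested, with 275 genes lower and 4 members higher as deposited, and 2164 genes and 1 member higher and 3 members lower relative to the median gene, TXN among them (-0.13, limma adjusted p = 0.0260). With no filter 5083 genes were lower relative to the median gene. On that scale 1 member was called lower, not 2, with no filter, with a pseudocount of 64 and with no intensity trend, since MLX missed the threshold. With the mean of a gene's probe sets TXN turned to 0.13, TXNRD2 gained a call (0.15, limma adjusted p = 0.0472), ARRDC3 lost its call, and 4 members were higher.

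Leaving out 1 array at a time gave 7312 to 8303 genes higher and 346 to 502 lower as deposited, and 2853 to 3090 higher and 2794 to 2936 lower relative to the median gene. The members called were 6 to 7 higher and 0 lower as deposited, and 3 higher and 1 to 2 lower relative to the median gene. With the replicate number as a block, 7617 genes were higher and 378 lower as deposited, with 6 members higher, and MLX missed the threshold (0.30, limma adjusted p = 0.106); relative to the median gene it gave 3 members higher and 2 lower. Duplicate arrays and dim signals near background limit what can be said of ARRDC4 and of the dimmer probe sets of MLXIP, MLX and TXNRD2. The causes of these changes were not tested.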
